A study of Mus musculus with 24 samples.

Results

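The first day of embryoid body formation was followed in mouse embryonic stem cells that lack Eed, by comparing the 2 libraries titled as Eed KO embryoid bodies at day 1 with the 2 libraries titled as Eed KO cells in the state labelled 3i. These are 4 of 24 libraries and 2 of 12 groups in the series, and all 23284 genes of the deposited count table entered. The cells are of the C57BL/6 strain, and per the labels' protocols they were maintained with serum and LIF on a feeder layer of mouse embryonic fibroblasts. The labels do not spell out what 3i contains. Between 3i and day 1 culture conditions, aggregation and time changed together, so their parts in a change cannot be told apart. Eed was deleted from a conditional line by adding 800 nM 4-hydroxytamoxifen (KO). The remaining libraries hold the conditional line without tamoxifen (f/f), KO cells carrying wild-type EED (KO+WT) and KO cells carrying a form of EED labelled N-KR, which the labels do not explain (KO+N-KR), each at 3i, day 1 and day 2. KO+WT and KO+N-KR had the deletion and the tamoxifen in common with KO, so when KO is compared with them, added EED and line history cannot be told apart. Against f/f, genotype, tamoxifen and line history cannot be told apart. Each line enters once, and the labels do not say whether it is 1 clone.

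EED is the subunit of Polycomb repressive complex 2 (PRC2) that binds methylated histone H3 and stimulates the methyltransferase EZH2 or EZH1, so cells without it lose the complex's repressive mark. Embryonic stem cells without PRC2 are known to self-renew. When cells aggregate into embryoid bodies without LIF, the transcription factors of the naive network are turned down and a formative program, driven by FGF signalling through the kinase ERK, is turned on before germ layers appear.

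The 24 libraries held 7553683 to 14426034 counts each. The 2 libraries of a group differed by 1.10 to 1.18 times the variance of binomial sampling (KO at 3i 1.13 times, KO at day 1 1.11 times), against 89.7 times between KO at 3i and KO at day 1. No label says that the 2 are separate cultures. Each pair was added up and enters as 1 sample, giving KO 22763106 counts at 3i and 21929215 at day 1. Levels below are CPM (counts scaled to a common library size) after TMM scaling, and a pair of values gives library 1 and library 2. Changes are log2 fold changes of KO day 1 over KO 3i ± SE from edgeR's quasi-likelihood fit to the 12 sums, with Benjamini-Hochberg adjusted p-values over 15558 genes tested and a threshold of 0.05. In that fit KO had its own level in each state, and the spread came from how unevenly the other 3 lines changed from state to state. KO, with 1 sample a state, was assumed to vary as they did, so a call says that a change was large beside that spread and not that it recurred in separate KO cultures.

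Eed itself stood at 141 and 132 CPM in KO at 3i and at 172 and 175 CPM at day 1. The day 1 libraries were both the higher ones, and the change did not pass the test (0.33 ± 0.17, adjusted p = 0.135 by edgeR). Without the day 2 samples it did (0.0485). In the other lines Eed stood at 175 (f/f), 386 (KO+WT) and 168 CPM (KO+N-KR) at 3i. At day 1 it stood at 219 (f/f), 372 (KO+WT) and 181 CPM (KO+N-KR). The counts cover the gene as a whole and the deleted exons are not stated, so the deletion cannot be checked from these levels. Skp1a, the SCF ubiquitin ligase adaptor named in the series title, stood at 347 and 342 CPM at 3i and at 359 and 365 CPM at day 1 (0.07 ± 0.10, adjusted p = 0.630 by edgeR).

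On the first day 2721 genes rose in KO (17.5% of those tested) and 2603 fell (16.7%), 34.2% in all, with 812 and 1225 of them changing at least 2-fold. Counts of list members below are to be read beside these shares. Under library totals alone, the overall median moved from -0.01 to -0.11 and the counts to 2035 risen and 3267 fallen, so that small rises in particular depend on the TMM scale. Judged by a 2-fold change and 5 CPM in whichever sum was higher, with no test, 503 genes were higher at day 1 (4.57% of 10997) and 666 lower (6.06%). Of these, 431 and 558 passed 2-fold in both pairs of libraries with the same number.

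The naive network went down. Of 16 naive pluripotency genes, 13 fell and 1 rose, and the list's median was -0.95 against -0.01 for all genes tested. Klf4, a LIF-responsive transcription factor of that network, stood at 580.3 and 566 CPM at 3i and at 39.3 and 43.2 CPM at day 1 (-3.81 ± 0.12, adjusted p = 4.16e-10 by edgeR). Its level on the first day was thus far under both 3i libraries. Socs3, the feedback inhibitor of LIF signalling through STAT3, went from 112 and 121 to 13.7 and 12.2 CPM (-3.15 ± 0.23). Tbx3, which maintains naive cells downstream of LIF, went from 284 and 286 to 56.7 and 48.5 CPM (-2.41 ± 0.24). Tfcp2l1, another naive factor, went from 766 and 758 to 163 and 162 CPM (-2.23 ± 0.25). For each of these the 2 states were far apart and their libraries did not overlap. Nanog fell by less, with 479 and 471 CPM at 3i and 174 and 174 CPM at day 1 (-1.45 ± 0.15), and Esrrb by less again, with 639 and 649.7 CPM and then 393 and 382 CPM (-0.73 ± 0.15). Stat3, the transducer of LIF, also fell (-1.47 ± 0.11). The member that rose was Nr0b1, a nuclear receptor of the pluripotency network, from 48.0 and 44.7 to 189 and 189.9 CPM (2.02 ± 0.20), and its rise was over by day 2, when it stood at 51.4 CPM. Klf5 (-0.21 ± 0.21) and Fgf4 (0.28 ± 0.12) did not pass the test. In bulk RNA, fewer cells that express a gene and less RNA in each cell cannot be told apart, here and below.

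Genes of pluripotency in general mostly rose or did not pass the test. Of 10 general pluripotency genes 6 rose and 2 fell, with a median of 0.67. Pou5f1, the factor OCT4, stood at 767 and 759 CPM at 3i and at 1194 and 1164 CPM at day 1 (0.63 ± 0.09, adjusted p = 0.000103 by edgeR). Both day 1 libraries lay above both 3i libraries. Utf1, a chromatin factor of undifferentiated cells, rose from 133 and 127 to 561 and 557 CPM (2.10 ± 0.10). Dppa4 (1.44 ± 0.11), the RNA-binding protein gene Lin28a (1.23 ± 0.15) and L1td1 (1.16 ± 0.11) rose as well. Sox2, the partner of OCT4, was at 679 and 682 CPM at 3i and 649.8 and 678 CPM at day 1, with library 2 of day 1 next to the 3i values (-0.04 ± 0.11, adjusted p = 0.803 by edgeR). Dppa5a (-0.35 ± 0.11) and the Nodal co-receptor gene Tdgf1 (-0.36 ± 0.10) were the 2 that fell, and Dppa5a lost its call without KO+WT (adjusted p = 0.0615 by edgeR).

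The formative program came up within the day. Of 16 formative and primed epiblast genes 15 rose, none fell, and the median was 2.84. Pou3f1, a transcription factor of the formative state, stood at 4.13 and 3.38 CPM at 3i and at 58.0 and 57.0 CPM at day 1 (3.91 ± 0.27, adjusted p = 2.02e-07 by edgeR). Otx2, which starts the transition out of the naive state, went from 9.14 and 9.85 to 85.7 and 88.6 CPM (3.20 ± 0.23). Lef1, a DNA-binding partner of beta-catenin, went from 1.23 and 1.09 to 19.4 and 20.8 CPM (4.08 ± 0.49). In all 3 the day 1 libraries lay well clear of the 3i libraries. Fgf5, the standard primed epiblast marker, was close to absent at 3i, with 1 read in the sum of 2 libraries against 218 at day 1, a ratio of 243 with an exact 95% interval of 43.1 to 9630 that covers counting error only. By day 2 it had reached 23.9 CPM from 10.2 CPM at day 1. Sox3 (3.63 ± 0.57), Grhl2, a regulator of epithelial genes (3.51 ± 0.25) and Wnt8a (2.53 ± 0.87) were among the others that rose, and Foxd3 was the member that did not pass (0.97 ± 0.36, adjusted p = 0.0505 by edgeR).

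The enzymes that set DNA methylation rose as well. Dnmt3a, a de novo methyltransferase, went from 51.5 and 53.7 CPM at 3i to 851 and 841 CPM at day 1 (4.01 ± 0.19, adjusted p = 9.81e-09 by edgeR). Dnmt3b, the second such enzyme, went from 72.3 and 71.7 to 636 and 639 CPM (3.14 ± 0.19), and Dnmt3l, their catalytically inactive cofactor, from 146 and 137 to 723 and 721 CPM (2.34 ± 0.16). All 3 were lower again at day 2, at 384, 427 and 417 CPM. Of the 9 genes on the DNA methylation list 6 rose and none fell, with a median of 0.59. The demethylation genes Tet1 (0.40 ± 0.12), Tet3 (0.59 ± 0.21) and Tdg (0.38 ± 0.11) made up the smaller rises, and only 3 rises were left under library totals alone. Dnmt1 (0.03 ± 0.10) and its partner Uhrf1 (0.20 ± 0.10), which copy methylation at replication, did not pass the test. Tet3 was not called when library 1 of each group was left out (adjusted p = 0.207 by edgeR) or without KO+N-KR (0.0575).

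**Figure D1:**
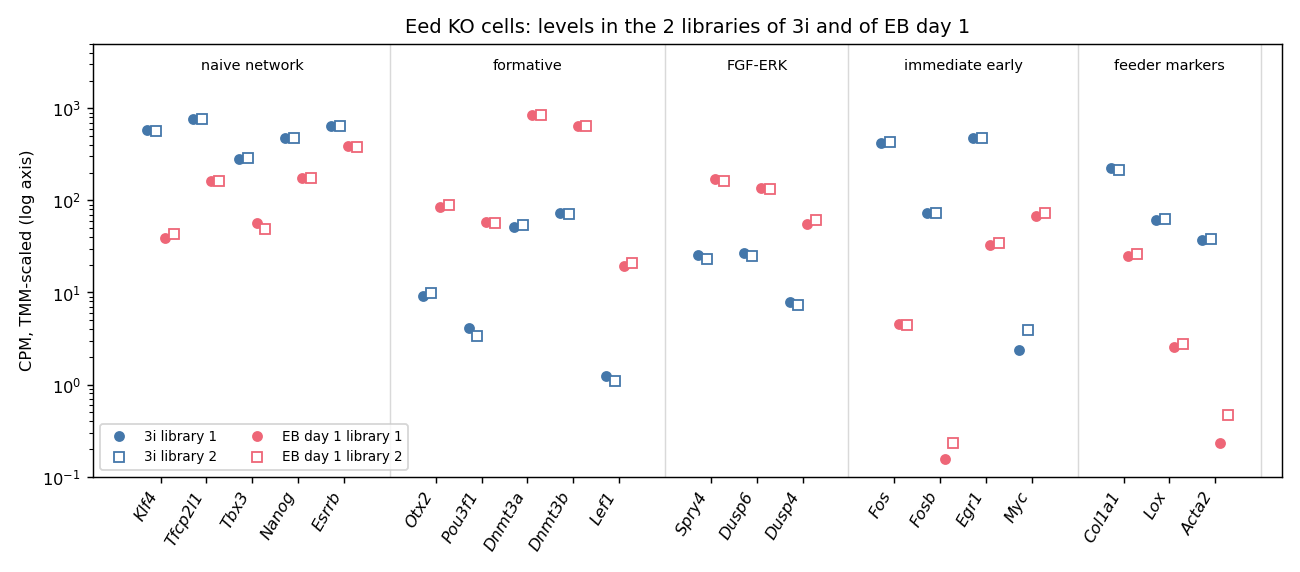
Level of selected genes in each KO library, in TMM-scaled CPM on a log axis. Blue marks the 2 libraries of 3i and red the 2 of day 1, with a filled circle for library 1 and an open square for library 2. The 2 libraries of a state nearly coincide, while naive and feeder genes lie lower and formative and FGF-ERK genes higher at day 1. Fos, Fosb and Egr1 lie lower at day 1 and Myc lies higher.

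Genes that report on FGF-ERK signalling moved upwards, while immediate early genes moved the other way. Of 14 feedback genes of FGF-ERK signalling 11 rose and none fell, with a median of 1.01. Spry4, an inhibitor of the pathway, went from 25.6 and 23.4 CPM at 3i to 170.0 and 161 CPM at day 1 (2.76 ± 0.15, adjusted p = 2.70e-08 by edgeR). Dusp6, a phosphatase of ERK, went from 26.5 and 24.7 to 137 and 133 CPM (2.39 ± 0.26) and the related Dusp4 from 7.83 and 7.26 to 55.1 and 60.8 CPM (2.92 ± 0.24). Both libraries of day 1 exceeded those of 3i in each case. Phlda1 (2.48 ± 0.31) and the ETS factor gene Etv4 (2.34 ± 0.15) rose too, and Spry1 (0.44 ± 0.18), Dusp5 (0.31 ± 0.31) and Fosl1 (1.01 ± 0.53) did not pass.

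Of 9 immediate early genes tested, 8 fell and 1 rose, with a median of -3.01. Fos, a component of the AP-1 transcription factor, was at 418 and 431 CPM at 3i and at 4.61 and 4.42 CPM at day 1 (-6.55 ± 0.53, adjusted p = 9.01e-07 by edgeR). Fosb went from 73.4 and 72.4 to 0.156 and 0.232 CPM (-8.57 ± 0.86) and the zinc finger factor gene Egr1 from 474 and 477 to 32.5 and 34.6 CPM (-3.83 ± 0.41). The fall left Fosb close to 0 in both day 1 libraries. Egr2 (-4.74 ± 0.75), Atf3 (-3.01 ± 0.52), Jun (-2.61 ± 0.28), Junb (-1.96 ± 0.25) and Ier2 (-0.54 ± 0.18) completed the group that fell. Part of it was back at day 2, when Fos stood at 39.4 CPM and Jun at 46.9 CPM. Myc, a growth regulator that is on the same list, went the opposite way, from 2.39 and 3.88 to 67.2 and 72.9 CPM (4.52 ± 0.35, adjusted p = 6.18e-07 by edgeR). Its rise was transient, with 16.8 CPM at day 2.

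Beyond these programs, the largest rises by the naming rule included Enpp2, which encodes the lysophospholipase autotaxin, from 0.435 and 0.796 CPM at 3i to 25.3 and 28.6 CPM at day 1 (5.49 ± 0.45, adjusted p = 9.43e-07 by edgeR). Spna1, an erythroid alpha-spectrin gene, went from 1.96 and 1.49 to 49.6 and 53.0 CPM (4.85 ± 0.21). Pkdcc, a secreted tyrosine kinase gene, went from 0.870 and 0.995 to 24.2 and 23.7 CPM (4.69 ± 0.43). All 3 genes had under 2 CPM in each 3i library. Efnb2, which encodes the membrane ligand ephrin-B2, reached 58.6 and 54.5 CPM from 4.50 and 4.18 CPM (3.71 ± 0.25), and Sema3e, a secreted guidance cue, reached 29.3 and 26.2 CPM from 2.32 and 2.09 CPM (3.65 ± 0.24). Also in this group were the protocadherin gene Pcdh1 (4.14 ± 0.26), Enox1 (3.85 ± 0.20) and Pla2g7, a secreted phospholipase gene (3.75 ± 0.28). Pla2g7 and Enox1 were lower again at day 2, at 4.34 and 23.4 CPM, whereas Pkdcc went on to 43.6 CPM.

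Among the 12 largest falls were 2 genes of the fibroblast list, Acta2 and Lox. Acta2, smooth muscle actin, went from 37.2 and 38.2 CPM at 3i to 0.234 and 0.465 CPM at day 1 (-6.82 ± 0.44, adjusted p = 1.20e-07 by edgeR). Lox, which crosslinks collagen, went from 61.9 and 62.5 to 2.58 and 2.79 CPM (-4.54 ± 0.24), and Thbs1, the matrix protein thrombospondin, from 368 and 359 to 18.3 and 18.7 CPM (-4.30 ± 0.26). Outside the 12 largest, Col1a1, the main fibrillar collagen gene of fibroblasts, went from 227 and 216 to 25.1 and 26.3 CPM (-3.12 ± 0.29). For each the day 1 libraries were far under those of 3i. The naming rule itself required a fall of at least 2-fold in both library pairs for Acta2, Lox and Thbs1. Ccdc80 (-4.95 ± 0.37), Col12a1 (-4.10 ± 0.24), the protease gene Prss23 (-5.16 ± 0.55), Ly6g6e (-4.57 ± 0.27) and Padi2 (-3.73 ± 0.33) were among the 12 largest, as were Lox and Thbs1. Of 17 fibroblast markers tested (18 listed) 13 fell and none rose, with a median of -1.91. Summed over the list they stood at 825 and 803 CPM in the 3i libraries and at 241 and 239 CPM in those of day 1. The sum in the other lines ran from 746 to 1173 CPM at 3i and from 204 to 307 CPM at day 1. The sum of feeder markers was thus lower at day 1 in all 4 lines, and the part of feeder RNA in the falls of matrix and immediate early genes was not tested. Among the 12 basement membrane genes 7 fell, led by Lama1 (-2.03 ± 0.20) and Nid1 (-1.49 ± 0.18), and 1 rose, Lamb1, which was not called without library 2 of each group (adjusted p = 0.0922 by edgeR). Fn1, the matrix protein fibronectin, went from 2364 and 2388 to 952 and 953 CPM (-1.32 ± 0.18).

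**Figure D2:**
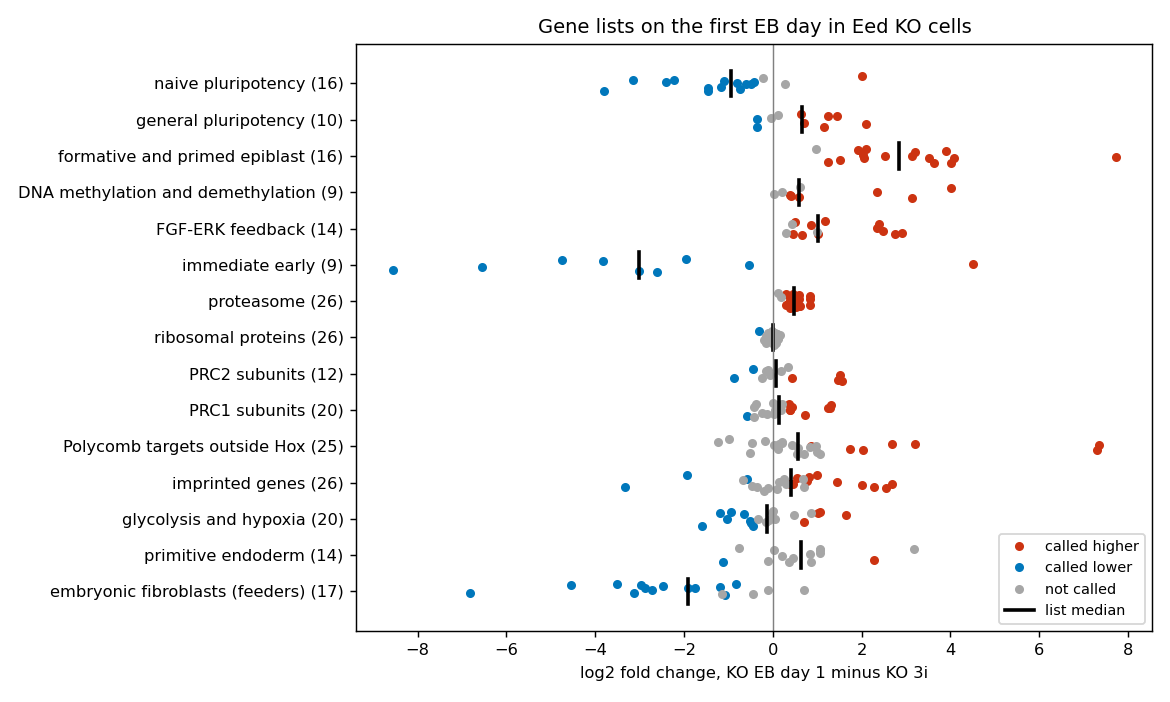
Log2 fold change of KO day 1 over KO 3i for every tested member of 15 gene lists, 1 point a gene, with the number tested in brackets. Red points passed the test upwards, blue points downwards and grey points did not pass, and black bars are list medians. The formative list has its median at 2.84 and the immediate early list at -3.01, while ribosomal protein genes sit around 0.

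Housekeeping machinery moved by smaller amounts. Of all genes tested, 17.5% rose and 16.7% fell. Of 26 proteasome genes 24 rose and none fell, with a median of 0.47, and 17 rose under library totals alone. Psmc4, an ATPase subunit of the regulatory particle, went from 112 and 114 to 200.2 and 209 CPM (0.85 ± 0.11, adjusted p = 4.88e-05 by edgeR). Psmc1 (0.84 ± 0.11) and Psmd14, a deubiquitinase subunit (0.83 ± 0.12), rose by similar amounts. The medians of the same list in the other 3 lines were close to that in KO, at 0.45 in f/f, 0.45 in KO+WT and 0.44 in KO+N-KR. Ribosomal protein genes had a median of 0.00, with 1 of 26 called, downwards, and 4 called downwards under library totals alone. Of 14 chaperone and unfolded protein genes 4 rose, with Hsph1 (0.96 ± 0.13) and Hspa8 (0.58 ± 0.11) at the top. Of 18 cholesterol synthesis genes 7 rose and 1 fell, which was Insig1, an inhibitor of the pathway's regulators (-0.60 ± 0.15). With library totals alone that list had 2 rises and 2 falls, and without KO+WT 4 rises. Of 18 oxidative phosphorylation genes 4 fell and none rose, fewer calls than the 34.2% of all genes, and Cox5a was among those that fell (-0.49 ± 0.10). Among 12 SCF ligase genes Fbxo15, an F-box gene of undifferentiated cells, fell from 211 and 222 to 55.1 and 55.8 CPM (-1.96 ± 0.16) and Cul1, the cullin scaffold, rose from 119 and 115 to 181 and 185 CPM (0.64 ± 0.11). Of 14 p53 targets 4 rose and 5 fell, the largest being Cdkn1a, the cell cycle inhibitor p21, from 158 and 152 to 49.0 and 52.2 CPM (-1.63 ± 0.16). Only 2 of those rises were left under library totals alone, without KO+WT or without KO+N-KR.

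Polycomb genes did not move as a block. Of 12 PRC2 subunits 4 rose and 2 fell, where 17.5% and 16.7% of all genes tested did so, and the median was 0.07. The core genes Ezh2 (-0.11 ± 0.10) and Suz12 (-0.16 ± 0.13) did not pass the test. The rises were in accessory subunits. Jarid2, which helps bring PRC2 to chromatin, went from 266 and 264 CPM at 3i to 785 and 777 CPM at day 1 (1.56 ± 0.14, adjusted p = 2.33e-06 by edgeR). E130012A19Rik, the gene of EPOP, went from 112 and 119.5 to 326 and 314 CPM (1.48 ± 0.17), and Phf19, a Polycomb-like subunit, from 7.32 and 9.35 to 23.0 and 23.7 CPM (1.51 ± 0.21). The 3 were at 363, 125 and 22.2 CPM at day 2, so the rises of Jarid2 and E130012A19Rik had largely gone by then and that of Phf19 had not. Aebp2 (0.42 ± 0.12) also rose, and Phf1 (-0.88 ± 0.24) and Ezh1 (-0.43 ± 0.15) fell. Ezh1 lost its call when library 2 of each group was left out (adjusted p = 0.0788 by edgeR) and without KO+WT (0.0635).

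Of 20 PRC1 genes, which encode the complex that ubiquitylates histone H2A, 8 rose and 1 fell, with a median of 0.14. Of all genes tested 17.5% rose and 16.7% fell. Only 4 rose under library totals alone, where 3 fell, and only 4 rose when library 2 of each group was left out. Kdm2b, which tethers PRC1 to unmethylated CpG islands, went from 116 and 112 to 284 and 284 CPM (1.31 ± 0.13, adjusted p = 4.90e-06 by edgeR). Phc1 went from 293 and 289.9 to 709 and 709 CPM (1.28 ± 0.12), and Bcor, the scaffold of a variant complex, rose as well (1.24 ± 0.12). Bmi1, a Polycomb ring finger subunit, was at 11.7 and 11.1 CPM at 3i and 17.6 and 21.0 CPM at day 1 (0.73 ± 0.22) and was not called when library 2 of each group was left out (adjusted p = 0.0883 by edgeR). Over the 20 genes, 11 KO changes lay above those of all other 3 lines and 2 below, against 27.4% and 23.1% of all genes tested.

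Some of the genes that Polycomb is known to silence in stem cells rose within the day. Of 32 such developmental regulators outside the Hox clusters 25 had enough reads for the test. Of these 7 rose and none fell, where 17.5% and 16.7% of all genes tested did so, and the median was 0.56. The list sums to 89.9 and 84.8 CPM in the 3i libraries and 188 and 186 CPM in those of day 1. In each other line the sum rose too, from 90.7 to 162 CPM (f/f), 95.4 to 164 CPM (KO+WT) and 78.6 to 160 CPM (KO+N-KR). Wt1, a zinc finger factor of the urogenital system, had 2 reads in the 3i sum and 305 at day 1, a ratio of 170 with an exact 95% interval of 46.6 to 1408 for counting error. The other lines had more Wt1: at day 1 it stood at 14.2 CPM in KO against 34.1 (f/f), 45.3 (KO+WT) and 34.0 CPM (KO+N-KR). Evx1, a homeobox gene of the primitive streak, had no read at 3i and 20 at day 1, at least 7.42-fold higher than a floor of 3 reads in the sum. Meis1, a cofactor of Hox proteins, went from 0.943 and 0.895 to 9.13 and 7.55 CPM (3.20 ± 0.41). Meis2 (2.03 ± 0.45), Tbx4 (1.73 ± 0.43) and Olig2 (0.87 ± 0.18) also rose, Tbx4 not when library 2 of each group was left out (adjusted p = 0.0867 by edgeR). The endoderm regulators Gata4 (0.03 ± 0.32) and Gata6 (1.05 ± 0.44) did not pass. No Hox gene of 12 tested (14 listed) rose and 3 fell, all from low levels. Hoxb9 had 118 reads in the 3i sum and 3 at day 1, a ratio of 35.3 with an exact 95% interval of 11.8 to 174 for counting error. Hoxb4 and Hoxd8 had 16 and 13 reads at 3i and none at day 1, and neither was called when library 2 of each group was left out (adjusted p = 0.0506 and 0.0560 by edgeR).

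Imprinted genes, some of which depend on PRC2 for the silence of one copy, were called in both directions, more often upwards. Of 26, 12 rose and 3 fell, where 17.5% and 16.7% of all genes tested did so. The median was 0.41, and 5 fell under library totals alone. The median log2 ratio was 0.41 in KO, 0.32 in f/f, 0.29 in KO+WT and 0.21 in KO+N-KR. Peg10, a retrotransposon-derived placental gene, went from 97.5 and 91.4 to 609 and 607 CPM (2.68 ± 0.18, adjusted p = 2.18e-07 by edgeR). Peg3 went from 71.2 and 71.8 to 426 and 415 CPM (2.56 ± 0.15) and Mest from 35.8 and 39.4 to 179 and 186 CPM (2.28 ± 0.22). Plagl1, a zinc finger factor gene, moved down from 99.8 and 106 to 9.99 and 10.5 CPM (-3.33 ± 0.21), and Igf2, a growth factor gene, from 26.4 and 24.9 to 6.24 and 7.55 CPM (-1.93 ± 0.32). The libraries of the 2 states did not overlap for any of these 5 genes. H19, the noncoding neighbour of Igf2, was at 40.5 and 42.4 CPM at 3i and 43.4 and 45.4 CPM at day 1 and did not pass (0.10 ± 0.29, adjusted p = 0.826 by edgeR). Whether 1 or both copies were read cannot be seen from these counts.

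Markers of later lineages were called in both directions, where 34.2% of all genes tested were called. Of 14 primitive endoderm genes only the endocytic receptor gene Cubn rose, from 6.82 and 7.66 to 36.0 and 33.5 CPM (2.29 ± 0.26), and only Pdgfra fell (-1.11 ± 0.36, not called without library 1 of each group). Of 12 mesoderm genes tested (15 listed) 2 rose and 2 fell, among them Gata2 from 5.44 and 4.28 to 0.0781 and 0.581 CPM (-4.12 ± 0.48). Of 9 neuroectoderm genes tested (13 listed) 2 rose and 1 fell, and Pax6 had 1 read at 3i and 37 at day 1, a ratio of 41.2 with an exact 95% interval of 6.95 to 1671 for counting error. Of 11 primitive streak genes tested (13 listed) 1 rose and 1 fell. Of 10 trophoblast genes tested (12 listed) 1 rose, Ascl2, and 4 fell, led by the keratin gene Krt7 (-2.77 ± 0.49) and by Tfap2c, a transcription factor also found in naive cells, which went from 148 and 145 to 27.9 and 28.7 CPM (-2.37 ± 0.19) and was back at 166 CPM at day 2. Ascl2 was not called when library 2 of each group was left out (adjusted p = 0.111 by edgeR) or without KO+N-KR (0.0504), and Esx1, one of the 4, was not called without library 1 (0.0747) or library 2 of each group (0.0530). Of 14 germline genes 3 rose, the largest change upwards being Mael (1.21 ± 0.21), and 5 fell, among them the meiotic cohesin gene Rec8 (-1.30 ± 0.21). None of 7 genes of 2-cell-like cells was called, and several of them are near-identical copies whose reads cannot be assigned with certainty. Markers of endothelium and blood summed to 14.5 and 14.1 CPM at 3i and 6.63 and 8.83 CPM at day 1, and 1 of the 4 tested, Tek, fell, though not without library 1 of each group. Of 5 neuronal genes tested, of 7 listed, 3 rose and 1 fell, Rbfox3, which was not called without library 1 of each group (adjusted p = 0.0858 by edgeR). Of the rises Tubb3 was not called under library totals alone (0.0616), and Snap25 was not called by DESeq2 (0.127) or without library 1 (0.0672) or library 2 of each group (0.131). Of 8 markers of parietal endoderm 1 rose and 3 fell, and the rise was not called under library totals alone, with no filter, by DESeq2, without library 2 of each group, without KO+WT or without KO+N-KR.

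Genes of signals other than FGF and of cell adhesion were called in both directions, where 17.5% of all genes tested rose and 16.7% fell. Of 12 BMP and Nodal targets 3 rose and 2 fell. Bmp4, a ligand, went from 2.47 and 3.68 to 19.2 and 21.3 CPM (2.75 ± 0.31, adjusted p = 1.90e-05 by edgeR) and its direct target Id1 from 11.4 and 12.3 to 40.3 and 38.7 CPM (1.75 ± 0.21), while Id2 (-1.79 ± 0.47) and Id4 (-1.39 ± 0.26) fell. Id2 was not called by DESeq2 (adjusted p = 0.103). Nodal itself was at 76.7 and 75.4 CPM at 3i and 86.2 and 82.3 CPM at day 1 and did not pass (0.15 ± 0.12). Of 12 WNT feedback genes 3 rose, led by Lef1, and 4 fell, led by Sp5 (-2.91 ± 0.86) and Cdx1 (-2.89 ± 0.29). Sp5 was not called without library 1 of each group (adjusted p = 0.557 by edgeR), and the most used WNT readout, Axin2, did not pass (-0.13 ± 0.22). Among 14 cell adhesion genes 2 rose, Epcam (0.77 ± 0.10) and the P-cadherin gene Cdh3 (0.66 ± 0.18), and 5 fell, among them Vim, an intermediate filament gene of mesenchymal cells and feeders (-1.10 ± 0.17). Cdh1, the E-cadherin gene, did not pass (0.06 ± 0.09).

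The first-day change in KO was then set against that of the lines with Eed or added EED. Across 11385 genes with at least 5 CPM in any of the 8 sums, Pearson's r of the log2 ratios was 0.945 with f/f, 0.935 with KO+WT and 0.926 with KO+N-KR, against 0.939 to 0.945 among those 3. These are values across genes, which are not independent replicates, and are given with no p. Of the 503 genes higher by size in KO, 421 were also at least 2-fold higher in f/f, 410 in KO+WT and 435 in KO+N-KR. Of the 666 lower genes the numbers were 559, 587 and 580. KO changed at least 2-fold more upwards than each of the other lines for 6 genes and more downwards for 5, while the same count gave 5 and 7 for f/f, 3 and 19 for KO+WT and 18 and 7 for KO+N-KR.

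**Figure D3:**
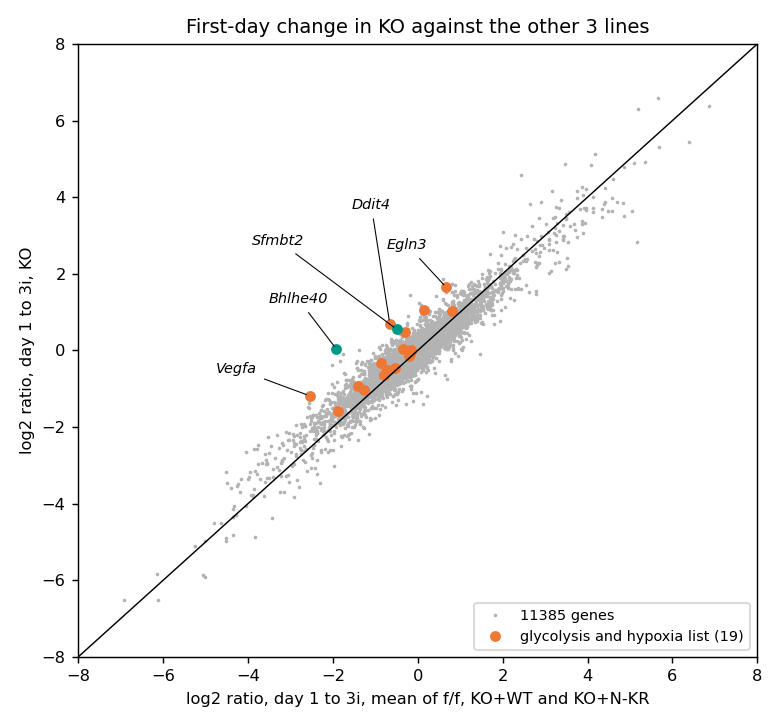
Log2 ratio of day 1 to 3i in KO (vertical axis) against the mean of the same ratio in f/f, KO+WT and KO+N-KR (horizontal axis), for 11385 genes (grey), with 19 genes of the glycolysis and hypoxia list in orange and 2 other named genes in green. Points on the black line changed equally. Most genes lie along it, and Bhlhe40 lies above it at 0.04 in KO.

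Tested as a difference of changes, KO against the mean of the other 3 lines, 1 gene was higher (0.00643% of 15558) and none was lower (0%) by edgeR. At an unadjusted p under 0.05 there were 499 higher and 312 lower, and DESeq2 called 7 and 2. The gene was Bhlhe40, a basic helix-loop-helix repressor that responds to low oxygen and to the circadian clock. It stood at 62.7 and 56.8 CPM in KO at 3i and at 63.7 and 58.7 CPM at day 1, so its level in KO hardly moved (0.04 ± 0.22). In the other lines it was lower at day 1 than at 3i, with log2 ratios of -1.58 in f/f, -1.82 in KO+WT and -2.35 in KO+N-KR. The difference was 1.94 ± 0.26 (adjusted p = 0.0401 by edgeR). At 3i Bhlhe40 was at 182 (f/f), 112 (KO+WT) and 132 CPM (KO+N-KR), all above KO. At day 1 it was at 60.9 (f/f), 31.6 (KO+WT) and 25.8 CPM (KO+N-KR), so that KO was by a small margin the highest line. The call was lost with DESeq2 size factors in edgeR (adjusted p = 0.0503), without KO+N-KR (0.104) and without day 2 (0.120).

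Other genes known to respond to low oxygen through the factor HIF had the same kind of pattern, short of the threshold by edgeR. Of 20 genes of glycolysis and hypoxia 4 rose in KO on the first day and 8 fell, with a median log2 ratio of -0.12, against -0.39 in f/f, -0.33 in KO+WT and -0.74 in KO+N-KR. The KO change lay above all other 3 lines for 14 of the 20 and below them for none, where 27.4% and 23.1% of all genes tested did so. None of the 20 differences passed edgeR's test. DESeq2 called that of Vegfa (adjusted p = 0.00391) and of Egln3 (0.0235), and edgeR with no filter on low counts called Vegfa (0.00143), Ddit4 (0.00143) and Egln3 (0.0110). At 3i KO was the lowest of the 4 lines for 18 of the 20 genes, against 25.0% of all genes tested, and at day 1 for 3 of them, against 26.1%. These positions share the KO samples with the changes and are given with no test.

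Egln3, an oxygen-sensing prolyl hydroxylase that marks HIF for destruction, stood at 44.3 and 39.9 CPM in KO at 3i and at 134 and 131 CPM at day 1 (1.64 ± 0.18, adjusted p = 1.46e-05 by edgeR). The other lines started at 69.9 (f/f), 75.0 (KO+WT) and 83.6 CPM (KO+N-KR) and reached 145 (f/f), 122 (KO+WT) and 101 CPM (KO+N-KR). KO thus rose from below all of them to a level among them (difference 0.97 ± 0.21, adjusted p = 0.391 by edgeR). Ddit4, an inhibitor of the growth kinase mTORC1, went from 97.7 and 102 to 161 and 163 CPM in KO (0.70 ± 0.25). In the other lines it was at 282 (f/f), 161 (KO+WT) and 259 CPM (KO+N-KR) at 3i and at 188 (f/f), 143 (KO+WT) and 111 CPM (KO+N-KR) at day 1, lower in each (difference 1.37 ± 0.29, adjusted p = 0.391 by edgeR). The rise of Ddit4 in KO was not called under library totals alone, by DESeq2 or without day 2 (adjusted p = 0.0739, 0.200 and 0.0544).

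Ankrd37, a small ankyrin repeat gene induced by HIF, went from 7.76 and 8.55 to 16.5 and 17.9 CPM (1.07 ± 0.21), and its log2 ratio was 0.37 in f/f, 0.05 in KO+WT and 0.04 in KO+N-KR. Vegfa, the vascular growth factor gene, fell in KO from 74.3 and 72.4 to 32.5 and 32.0 CPM (-1.19 ± 0.22), while the other lines were at 119 (f/f), 117 (KO+WT) and 139 CPM (KO+N-KR) at 3i and at 28.5 (f/f), 19.9 (KO+WT) and 17.0 CPM (KO+N-KR) at day 1 (difference 1.36 ± 0.26, adjusted p = 0.262 by edgeR). Vegfa was therefore under every other line at 3i and above every other line at day 1. Pdk1, the kinase that keeps pyruvate out of mitochondria, rose in KO from 143 and 139 to 285 and 289 CPM (1.02 ± 0.13) and had log2 ratios of 0.87, 0.97 and 0.59 in f/f, KO+WT and KO+N-KR. Several glycolytic genes fell in KO, among them the hexokinase gene Hk1, from 184 and 178 to 60.7 and 59.3 CPM (-1.59 ± 0.15), Pfkp (-1.03 ± 0.15), Pgk1 (-0.65 ± 0.13) and the glucose transporter gene Slc2a3, from 1703 and 1700.2 to 888 and 899 CPM (-0.93 ± 0.15).

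Further genes outside the list were picked after their values were seen. Ndrg1, a stress-responsive gene, was at 24.1 and 25.4 CPM at 3i and 36.8 and 37.5 CPM at day 1 in KO, against 3i levels of 63.5 (f/f), 57.0 (KO+WT) and 54.6 CPM (KO+N-KR) (difference 1.07 ± 0.18, adjusted p = 0.195 by edgeR). Elf3, an epithelial ETS factor gene, was at 116 and 115 CPM at 3i and 42.1 and 38.5 CPM at day 1, against 3i levels of 230.0 (f/f), 201 (KO+WT) and 206 CPM (KO+N-KR) (difference 1.05 ± 0.19, adjusted p = 0.262). Both were lower in KO than in any other line at 3i and within the range of the others at day 1. Pfkfb3, which makes an activator of glycolysis, was at the same level in KO in both states, at 24.1 and 25.5 and then 25.3 and 25.7 CPM, and had log2 ratios of -0.65, -0.68 and -0.80 in f/f, KO+WT and KO+N-KR (adjusted p of the difference = 0.465 by edgeR). Ppp1r3c, which targets a phosphatase to glycogen, had few reads, with 0.653 and 1.99 CPM in KO at 3i and 2.11 and 1.05 CPM at day 1, so that the states overlapped (adjusted p of the difference = 0.473 by edgeR). Leaving out KO+WT, KO+N-KR or day 2 gave no call of the difference by edgeR for any gene named in this paragraph. Without f/f, so against KO+WT and KO+N-KR alone and on 2 residual degrees of freedom, 72 genes were higher and 10 lower. Vegfa, Egln3, Ddit4, Ankrd37, Ndrg1, Elf3 and Pfkfb3 passed in that fit, with adjusted p-values of 0.00226, 0.00328, 0.0406, 0.0423, 0.00262, 0.00298 and 0.0378 by edgeR. Ndrg1 and Elf3 were also called by DESeq2 with all lines (both 0.00391) and by edgeR with no filter (0.00258 and 0.00221).

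**Figure D4:**
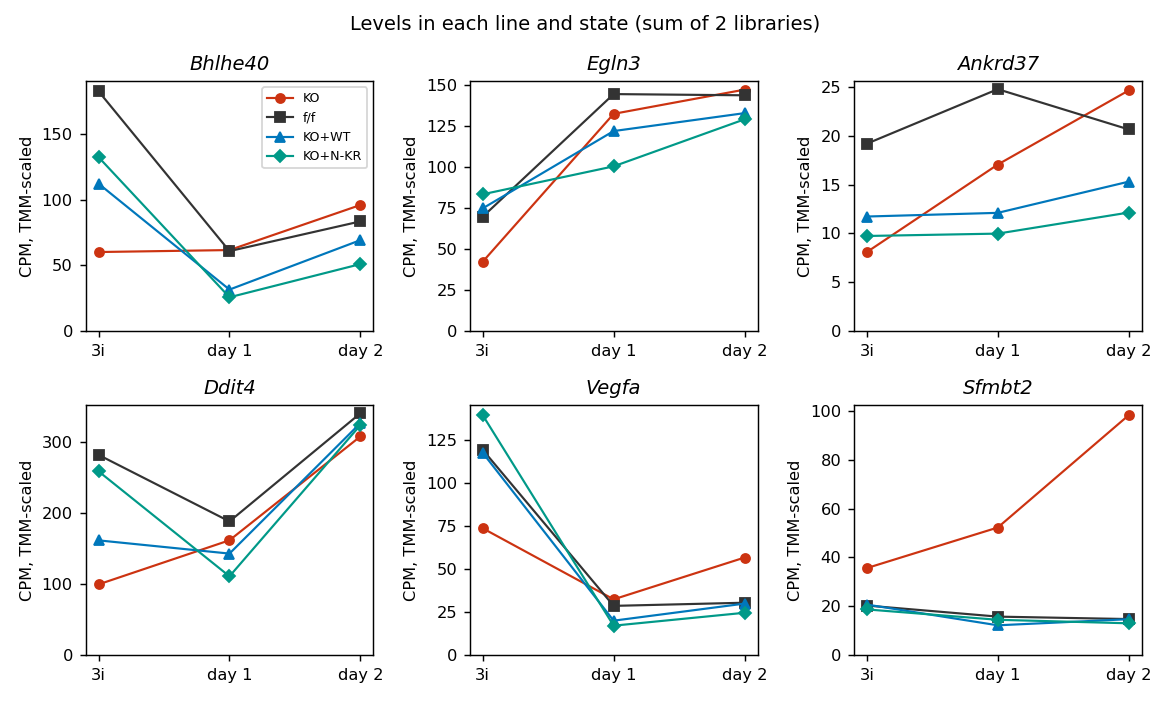
Level (TMM-scaled CPM, linear axes from 0, sum of 2 libraries) of 6 genes at 3i, day 1 and day 2 in KO (red circles), f/f (black squares), KO+WT (blue triangles) and KO+N-KR (green diamonds). For the first 5 genes KO starts as the lowest line at 3i and is not the lowest at day 1. Sfmbt2 is highest in KO at every state.

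The 4 genes of the glycolysis and hypoxia list that rose in KO are shown with a promoter window from RefSeq. HIF is known to bind a short core found in such windows. The first window listed for each gene was used (GRCm38.p6, 250 bases before to 50 after the annotated start, 5′ to 3′ on the gene's strand). Capitals mark ACGTG or GCGTG, read on both strands, so that their reverse complements CACGT and CACGC are marked too, and overlapping matches run together. The count files use the build mm9, so these positions are those of the reference alone. The windows lie at chr12:54203825-54204124 on the minus strand, chr8:45999801-46000100 on the minus strand, chr10:59951721-59952020 on the minus strand and chr2:71872974-71873273 on the plus strand.
Egln3: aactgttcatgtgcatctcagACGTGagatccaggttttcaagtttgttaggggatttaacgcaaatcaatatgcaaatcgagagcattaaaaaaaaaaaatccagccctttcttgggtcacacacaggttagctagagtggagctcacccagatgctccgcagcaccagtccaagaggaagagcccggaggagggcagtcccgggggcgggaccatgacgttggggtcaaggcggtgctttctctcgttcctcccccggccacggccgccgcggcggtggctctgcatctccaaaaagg
Ankrd37: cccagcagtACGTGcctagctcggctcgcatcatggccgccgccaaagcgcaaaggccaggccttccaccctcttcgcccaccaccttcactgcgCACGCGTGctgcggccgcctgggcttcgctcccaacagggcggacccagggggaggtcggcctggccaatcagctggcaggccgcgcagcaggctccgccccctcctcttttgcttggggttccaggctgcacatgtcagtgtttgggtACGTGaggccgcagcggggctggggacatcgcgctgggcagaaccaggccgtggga
Ddit4: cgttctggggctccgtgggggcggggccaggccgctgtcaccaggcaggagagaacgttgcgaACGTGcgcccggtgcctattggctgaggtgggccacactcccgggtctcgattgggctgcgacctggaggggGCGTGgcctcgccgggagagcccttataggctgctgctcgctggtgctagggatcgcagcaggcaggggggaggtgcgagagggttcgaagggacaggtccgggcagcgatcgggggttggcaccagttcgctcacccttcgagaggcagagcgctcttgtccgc
Pdk1: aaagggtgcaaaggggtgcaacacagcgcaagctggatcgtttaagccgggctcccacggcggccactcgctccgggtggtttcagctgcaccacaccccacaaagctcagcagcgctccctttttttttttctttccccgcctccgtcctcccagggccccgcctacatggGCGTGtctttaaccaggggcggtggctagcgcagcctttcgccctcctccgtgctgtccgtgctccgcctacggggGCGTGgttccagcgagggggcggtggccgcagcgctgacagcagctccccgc
They hold 1, 4, 2 and 2 matches. Over the list 15 of the 18 members with a window had a match (83.3%), against 61.5% of the 10775 tested genes with a window and 43.8% of all 32851 windows. A match is a run of letters and does not show that HIF was bound. Vegfa and Hk1 had none in the first window, the only one counted for a gene.

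Outside that group, Sfmbt2 differed in the opposite way at the start. Sfmbt2, an imprinted Polycomb-group gene expressed from the paternal copy in the placenta, stood at 35.6 and 35.7 CPM in KO at 3i and at 51.8 and 53.0 CPM at day 1 (0.55 ± 0.15, adjusted p = 0.0103 by edgeR). The other lines held 20.3 (f/f), 20.7 (KO+WT) and 18.7 CPM (KO+N-KR) at 3i and 15.7 (f/f), 12.2 (KO+WT) and 14.4 CPM (KO+N-KR) at day 1. It was thus highest in KO at 3i, rose there and was lower at day 1 than at 3i in each other line, and KO reached 98.4 CPM at day 2. The difference of the changes was 1.05 ± 0.18 and did not pass over all genes (adjusted p = 0.195 by edgeR), but did by DESeq2 (adjusted p = 0.0187) and without f/f (0.0132 by edgeR).

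Genes of the naive and formative states were compared between lines in the same way. None of the differences named here passed edgeR's test in the main fit. Prdm14, a naive factor, went from 37.3 and 39.5 to 26.2 and 23.4 CPM in KO (-0.61 ± 0.20), while its log2 ratio was -1.24 in f/f, -1.99 in KO+WT and -1.90 in KO+N-KR (difference 1.10 ± 0.23, adjusted p = 0.391 by edgeR). Of all genes tested, the KO change lay above all other lines for 27.4% and below them for 23.1%. Across the 16 naive genes it lay above for 8 and below for 1. Their median log2 ratio was -0.95 in KO, -1.10 in f/f, -1.41 in KO+WT and -1.51 in KO+N-KR. For the 16 formative genes the median log2 ratio was 2.61 in KO, 2.77 in f/f, 3.30 in KO+WT and 3.37 in KO+N-KR, with 1 KO change above and 6 below the others. At day 1 KO was the lowest line for 10 of these 16, against 26.1% of all genes tested. Dnmt3b, for one, was at 724 (f/f), 1173 (KO+WT) and 973 CPM (KO+N-KR) at day 1 against 637 CPM in KO (difference of changes -0.55 ± 0.20, adjusted p = 0.827 by edgeR). Qser1, which limits de novo DNA methylation, rose in KO from 76.9 and 75.1 to 157 and 159 CPM and by log2 ratios of 1.62, 1.91 and 1.81 in f/f, KO+WT and KO+N-KR (difference -0.73 ± 0.14, adjusted p = 0.262). Bend3, a DNA-binding repressor gene, gave a like pattern (difference -0.68 ± 0.13, adjusted p = 0.262). Pkdcc was at 24.0 CPM in KO at day 1 and at 15.7 (f/f), 9.43 (KO+WT) and 6.80 CPM (KO+N-KR) in the others (difference 2.17 ± 0.55, adjusted p = 0.573). The KO change of Pkdcc was larger than in each other line, and those of Prdm14 and Qser1 were smaller. DESeq2 called Qser1, Bend3 and Pkdcc, with adjusted p-values of 0.0146, 0.0220 and 0.0317. EdgeR with no filter on low counts called Prdm14, Qser1, Bend3 and Pkdcc. So did edgeR without f/f, on 2 residual degrees of freedom. Prdm14, Qser1 and Bend3 were picked after their values were seen.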

How the data were processed

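The measurement is poly(A) RNA sequencing of stem cells and embryoid bodies. Raw read counts per gene symbol were deposited by the authors in 1 table, made per the submitters' processing notes with STAR 2.5.2b, DESeq2 and mm9. Counter, strand setting and annotation were not given in the sources used here. Reads of overlapping or antisense genes may therefore be mixed. Of its columns 24 matched the sample labels and 6 did not and were not used. The 2 libraries of each group were summed, and edgeR 4.0.16 (R 4.3.3, filterByExpr, TMM, glmQLFit and glmQLFTest) was fitted to the 12 sums with 8 coefficients and 4 residual degrees of freedom (common coefficient of variation 7.04%). SE is the fold change divided by the square root of F. CPM are counts relative to the TMM-scaled library total, and log2 ratios used a prior count of 2. The fit was run on simulated counts with equal dispersion across genes and no line or state differences except those put into KO day 1. That setting does not test the spread between lines on which the p-values rest. Exact intervals are 95% binomial (Clopper-Pearson), and floors are 3 counts. Gene lists were described by counts and medians, with no set test. Named genes were the 12 largest called rises and falls with at least 20 CPM and 2-fold in both library pairs (unnamed clone symbols left out), those called in the difference test, up to 4 called members of each list in either direction, 12 genes always given, and a few marked as picked later. Some genes that this rule takes in are not reported here. Members and lists were chosen with earlier results of these data known. Alternatives were other scalings, no filter, DESeq2 1.42.0, all 24 libraries, an additive model, leaving out a library number, line or day 2, and other sizes.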

Additional observations from a re-analysis of the deposited data

Results flagged for a closer look

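Bhlhe40 stood out because its first-day change in KO differed from that in the other 3 lines by the test of the difference itself, by 1.94 ± 0.26 on the log2 scale (adjusted p = 0.0401 by edgeR). The log2 ratio of day 1 to 3i was 0.04 in KO and -1.58, -1.82 and -2.35 in f/f, KO+WT and KO+N-KR, 1 sample in each state of a line. Over the alternatives to that fit other than the 24-library ones, the lowest adjusted p for Bhlhe40 was 5.16e-07 and the highest 0.120.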

How the results depend on the processing

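The counts of genes that changed in KO, 2721 higher and 2603 lower, stayed within 1.5 times under other scalings, no filter, DESeq2 and each omission. The 24 libraries as 12 groups gave 4654 and 4580, and an additive model over 4 lines 4938 and 5046. In the additive model, which forces 1 change on all lines, Bhlhe40 (-1.47), Bmi1 (-0.0119), Ddit4 (-0.34), Sfmbt2 (-0.24), Ndrg1 (-0.25), Pfkfb3 (-0.53) and Ppp1r3c (-1.20) changed sign. Bmi1, Ddit4, Sfmbt2 and Ndrg1 were called in the main fit and not in the additive model. Bhlhe40, Pfkfb3 and Ppp1r3c were called in the additive model and not in the main fit. For the difference of KO from the other lines, 1 higher and 0 lower became 0 higher with DESeq2 size factors, without KO+N-KR and without day 2, 17 and 5 with no filter, 7 and 2 by DESeq2, 72 and 10 without f/f, and 1299 and 762 over 24 libraries. Leaving out library 1 or library 2 of each group gave 1 to 2 higher. By size, 503 and 666 became 1273 and 1443 at 1.5-fold, 124 and 156 at 4-fold, and 791 and 1246 at 1 CPM. Leaving out either library number also took the 2 mesoderm rises to 1, the 4 WNT falls to 2 and the 3 Hox falls to 1.

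The library numbers did not pair the KO samples (correlation of deviations -0.01). With the replicate block, the 24 libraries gave 4663 higher and 4591 lower in KO and 1341 and 780 for the difference.

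KO had 1 sample a state, so no value here measures how a second KO line or culture would behave. P-values of the main fit rest on 4 residual degrees of freedom from other lines. Those of the edgeR fits without a line or without day 2 rest on 2. The labels do not say when tamoxifen was given. For some genes with few reads in a sum, such as Hoxb9, the counts are given above. Others are given by fold change or call alone. Among these are Sp5 (26 reads at 3i and 3 at day 1), Snap25 (1 and 10) and Rbfox3 (13 and 0).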
